A study of Mus musculus with 9 samples.

Results

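The 57 genes described here encode the proteins that carry a cell through G2 and mitosis: cyclins and kinases, the spindle and its motors, the kinetochore, the machinery of anaphase and cytokinesis, and the factors that condense chromosomes. They were chosen as a list of mouse symbols, matched by Ensembl identifier to the table of counts. All 57 were found among the 35275 genes of the table, and all 57 were among the 15821 genes with enough counts to be tested. RNA was sequenced from 9 mammary gland tumors of Brca1Co/Co;MMTV-Cre;p53+/- mice, in which Cre driven by the MMTV promoter, active mainly in mammary epithelium, deletes the conditional Brca1 alleles, while p53 is lost from 1 allele in every cell. This genotype was shared by all 3 groups, so none of them serves as a comparison with intact Brca1. Treatment was started when a tumor measured 4 to 5 mm across, and tumors were taken after 5 doses at 3 doses a week. There were 3 tumors from saline, 3 from free Talazoparib given intravenously (i.v. TLZ) and 3 from Talazoparib enclosed in liposomes (NanoTLZ), both at 0.33 mg/kg. Saline and NanoTLZ were also given intravenously. The free drug was given in saline that held some DMSO. No tumor treated with empty liposomes or with DMSO alone was analysed here. Drug and carrier therefore cannot be told apart in either treated group from these data. For Top2a, the paper reports no regulation by empty liposomes in real-time PCR. The ages of these mice were not given in the sources used here.

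The RNA of most of these genes is abundant in G2 and mitosis and scarce in resting cells. Cdk1 bound to cyclin B starts mitosis once Cdc25 phosphatases remove its inhibitory phosphates, the spindle checkpoint holds the cell in metaphase until each kinetochore is attached, and Cdc20 then turns on the anaphase-promoting complex, which destroys cyclin B and securin. The genes share a transcriptional control: the DREAM complex represses them in resting cells, and MuvB with B-Myb and FoxM1 activates them in G2, in large part through a promoter element called the cell cycle genes homology region (CHR). Talazoparib inhibits PARP enzymes and traps them on DNA, which damages replicating DNA in cells that cannot use homologous recombination, the repair that needs Brca1. Tumor RNA is a mixture of many cells, and fewer dividing cells cannot be told apart from less of these transcripts per dividing cell.

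Gene counts of a tumor summed to between 17538380 and 21194980, and the 57 genes had between 78 and 20489 counts in any tumor, so none was near the limit of detection. Levels are given as CPM, counts scaled to a common library size with TMM normalization, always in the order A3673, A3685 and A3688 for saline, B3638, B3684 and B3700 for i.v. TLZ, and C3519, C3669 and C3698 for NanoTLZ. The study used 3 mice a group, the labels give no litter or sequencing batch, and p-values measure the spread between these tumors. Saline tumor A3688 stood apart from the others. Its 12 skeletal muscle marker genes summed to 841 CPM, against 42.1 to 233 CPM in the other saline tumors, 7.05 to 36.3 CPM with i.v. TLZ and 12.8 to 20.9 CPM with NanoTLZ, and its Krt5, a basal keratin, was at 1849 CPM against at most 72.9 CPM elsewhere, a gene singled out after its values were seen. The 12 mammary epithelial markers summed to 6290 to 10370 CPM with saline, 7618 to 9790 CPM with i.v. TLZ and 4924 to 7308 CPM with NanoTLZ. Single markers could be low within these sums, as Krt5 at 2.30 CPM in B3684 and Krt19 at 31.2 CPM in A3688. The 12 immune markers summed to 531 to 2346 CPM with saline, 1445 to 2796 CPM with i.v. TLZ and 3230 to 4335 CPM with NanoTLZ. Lyz2 alone was at 192 to 1573, 1144 to 2211 and 2260 to 3642 CPM in these groups. All 3 NanoTLZ tumors were above all 3 saline tumors for 3 of 11 tested immune markers, against 1237 of all 15821 tested genes. Each of these 11 had a log2 fold change above 0 in the mean of both treatments against saline, as had all 10 fibroblast markers and all 8 endothelial markers. All 11 tested muscle markers were below 0, and 2 of 4 tested adipocyte markers. No marker of any of the 6 lists was at 0 in every tumor. The part of these other cells in the results below was not tested, and values without A3688 are given beside the fold changes of the 57 genes and the medians of the other lists.

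Every one of the 57 genes had a lower fitted level in treated than in saline tumors. The log2 fold change was below 0 for 57 of 57 genes with i.v. TLZ, for 57 of 57 with NanoTLZ and for 57 of 57 in the mean of both treatments. The median log2 fold change was -1.13 with i.v. TLZ, -1.18 with NanoTLZ and -1.16 in the mean of both, which are ratios to saline of 0.456, 0.443 and 0.447, against medians over all 15821 genes of -0.034, -0.085 and -0.055 on the log2 scale. Single genes ranged from -2.09 to -0.36 with i.v. TLZ and from -2.26 to -0.53 with NanoTLZ, with standard errors between 0.29 and 0.71. Without saline tumor A3688 the medians were -0.71, -0.76 and -0.70, and all 57 genes stayed below 0 in each comparison.

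None of these differences passed the test for a single gene. With edgeR's quasi-likelihood test and Benjamini-Hochberg adjustment over all tested genes, 0 of 57 genes were called with i.v. TLZ, where 0% of all tested genes were called, 0 with NanoTLZ, where 0.00632% were called, and 0 in the mean of both treatments, where 0.019% were called. Adjusted p ran from 0.2505 to 0.8063 with i.v. TLZ, from 0.5518 to 0.7003 with NanoTLZ and, in the mean of both, from 0.09154 for Top2a to 0.5807 for Cdc25b. At an unadjusted p under 0.05, edgeR found 38 of the 57 genes lower with i.v. TLZ (66.7%), against 5.47% of all tested genes. The same count was 44 with NanoTLZ (77.2%), against 5.49%, and 49 in the mean of both (86.0%), against 8.29%. These counts changed with the tumors fitted. A fit without 1 tumor also has fewer tumors to test with, so a lower count does not by itself show dependence on that tumor. Without A3688 they were 10 with i.v. TLZ, 9 with NanoTLZ and 18 in the mean of both, against 4.19%, 3.27% and 4.87% of all genes tested in those fits. The i.v. TLZ count was also 10 without B3638 (against 3.52% of all genes) and 18 without B3684 (4.99%). The NanoTLZ count was 28 without A3673 (against 6.50% of all genes), 21 without C3519 (2.71%), 12 without C3669 (2.47%) and 19 without C3698 (2.51%). Without A3685 the counts rose to 45 with i.v. TLZ (8.56%), 48 with NanoTLZ (8.66%) and 52 in the mean of both (11.25%). Without B3700 the i.v. TLZ count rose to 47 (5.46%). DESeq2 fitted to all 9 tumors called 3 genes lower with i.v. TLZ (Top2a, Cenpe and Pbk), 0 with NanoTLZ and 8 in the mean of both (those 3 with Mki67, Kif15, Hmmr, Mad2l1 and Nuf2). Of all genes with an adjusted p in that fit, 0.531%, 0.337% and 0.842% were called lower. Fitted to the compared groups alone, DESeq2 called Top2a with i.v. TLZ, where 0.257% of all genes were called lower, and Kif2c and Cdc20 with NanoTLZ, where 0.514% were, and limma-voom called 0 genes in each comparison.

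Tumors of 1 group differed from each other across the whole list. The median deviation of the 57 genes from their own 9-tumor mean, on the log2 CPM scale, was 0.74, 0.014 and 1.29 in the saline tumors, -1.10, -0.40 and 0.29 in the i.v. TLZ tumors and -0.26, -0.47 and -0.26 in the NanoTLZ tumors. Saline tumor A3685 therefore lay below i.v. TLZ tumor B3700. Summed over the 57 genes, the level was 3982, 2278 and 6047 CPM with saline, 1040, 1673 and 2570 CPM with i.v. TLZ and 1844, 1525 and 1842 CPM with NanoTLZ. A3688 held the highest level of all 9 tumors for 43 genes and A3673 for 13, while B3638 held the lowest for 50. B3700 was above the lowest saline tumor for 40 genes, B3684 for 10 and B3638 for 1, whereas C3519 was so for 15, C3669 for 3 and C3698 for 12.

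**Figure D1:**
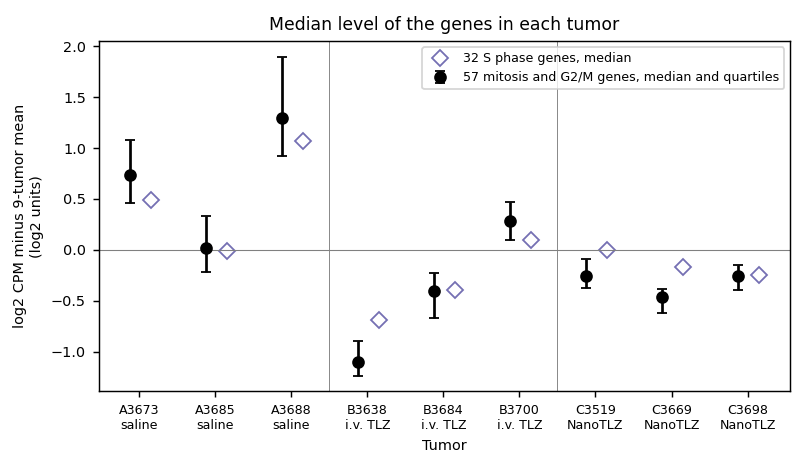
Median deviation of log2 CPM from the 9-tumor mean (log2 units, vertical axis) in each tumor (horizontal axis), as filled circles with bars from the lower to the upper quartile for the 57 mitosis and G2/M genes and as open diamonds for 32 S phase genes. Saline tumors A3673 and A3688 are highest at 0.74 and 1.29, i.v. TLZ tumors run from -1.10 to 0.29, and the NanoTLZ tumors lie together between -0.47 and -0.26.

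By these values the NanoTLZ tumors lay closest together. The median coefficient of variation of the 57 genes was 46.5% among saline tumors, 49.8% among i.v. TLZ tumors and 13.3% among NanoTLZ tumors, and the NanoTLZ value was the lower for 56 genes against i.v. TLZ and for 54 against saline. This difference in spread was not tested. Coefficients of variation were not computed over all tested genes, so it is not known whether it is particular to these genes. All 3 NanoTLZ tumors were below all 3 saline tumors for 38 of 57 genes (66.7%), against 8.13% of all tested genes. All 3 i.v. TLZ tumors were below all 3 saline tumors for 15 genes (26.3%), against 5.2%. All 6 treated tumors were below the saline tumors for 14 genes (24.6%), against 2.66%, and these were Top2a, Ncapg, Pbk, Melk, Nek2, Aurkb, Mad2l1, Nuf2, Kif2c, Hmmr, Dlgap5, Ect2, Cdca3 and Foxm1. Leaving out a tumor can only keep or raise such counts. Without A3688, the lowest saline tumor for only 1 gene, they were 15 for i.v. TLZ, 38 for NanoTLZ and 14 for all treated tumors. The shares of all tested genes were then 9.36%, 14.0% and 5.34%. These unchanged counts therefore cannot show how far the differences rest on A3688. Without A3685, the lowest saline tumor for 49 genes, 46 genes had no overlap for i.v. TLZ and 45 for all treated tumors, against 12.6% and 9.46% of all tested genes. Without B3700, the highest i.v. TLZ tumor for 51 genes, the counts were 46 and 32, against 11.6% and 4.67%.

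**Figure D2:**
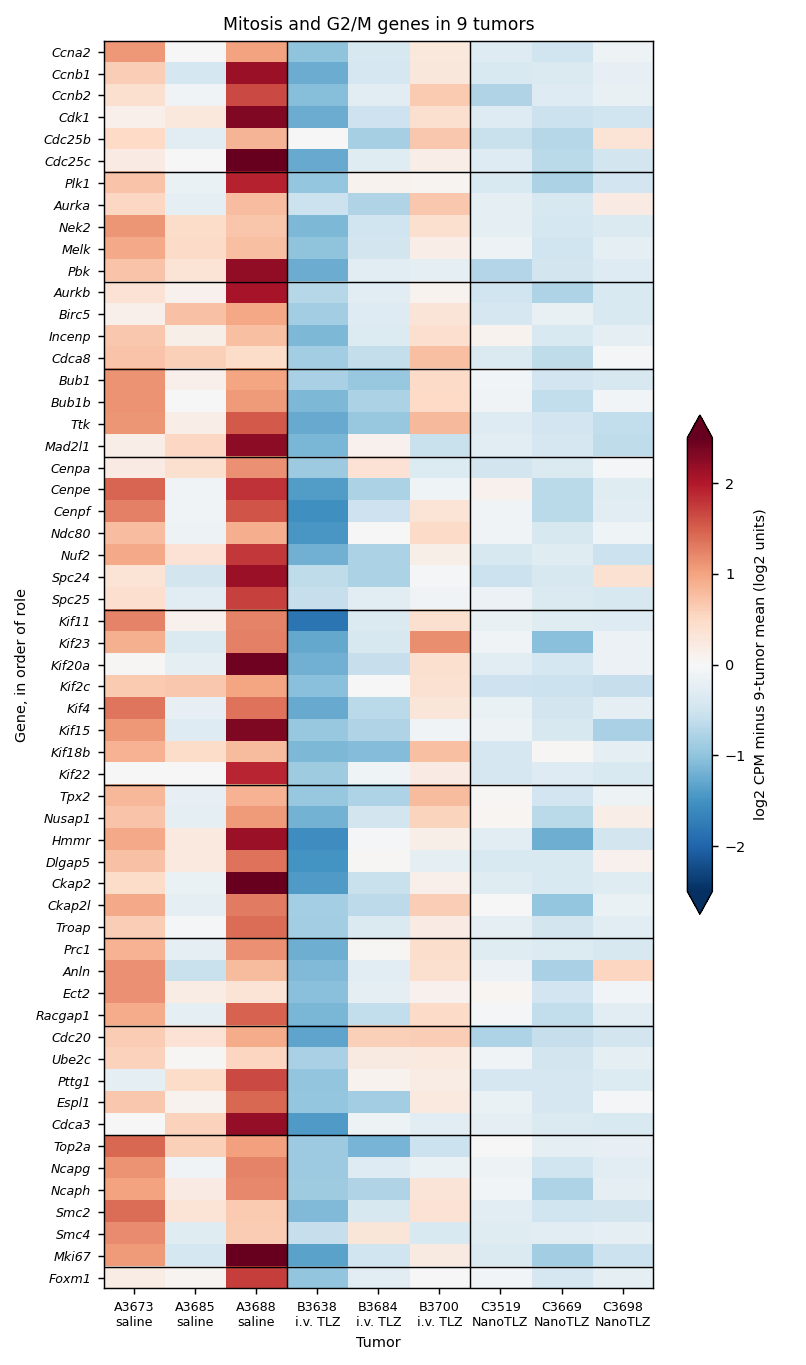
Log2 CPM of each of the 57 genes (rows, in the order of roles used in the text, with lines between roles) minus the gene's mean over the 9 tumors (columns, by group), as color from blue (below the mean) to red (above it), with values beyond 2.5 shown at the end of the scale. Columns A3673 and A3688 are mostly red, column B3638 is the darkest blue, holding the lowest level for 50 genes, and B3700 is mixed.

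The promoters of these genes were read for the elements named above. RefSeq promoter windows on GRCm38.p6, from 250 bases before to 50 bases after a start site, were held for 46 of the 57 genes. A CHR, searched as TTTGAA or TTTAAA on either strand, was present in the windows of 36 of 46 genes (78.3%), against 30.6% of all 27025 genes with a window and 36.0% of 25 S phase genes. A CCAAT box, searched as CCAAT on either strand, was present for 35 genes (76.1%), against 41.1% of all genes and 64.0% of S phase genes. At least 2 CCAAT boxes were held by 23 genes (50%), against 13.3% and 40.0%. An E2F element, searched as TTTCCCGC, TTTCGCGC, TTTGCCGC or TTTGGCGC on either strand, was present for 3 genes (6.52%), against 2.60% of all genes and 44.0% of S phase genes. The CHR share depended on where it was sought. In the 250 bases before the start alone it was 47.8%, against 28.1% of all genes. Within 50 bases on either side of the start, a window chosen after the matches had been seen, it was 69.6%, against 9.54% of all genes and 20.0% of S phase genes. Pairs of CCAAT boxes 31 to 33 bases apart, also sought after the matches had been seen, were found for 9 genes (19.6%), against 1.11% of all genes. A match is a description of the sequence and does not show that a factor binds there.

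**Figure D3:**
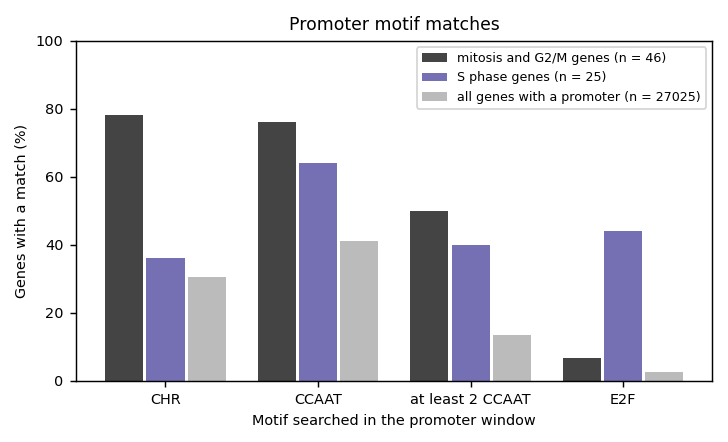
Share of genes with at least 1 match in the promoter window (percent, vertical axis) for each motif (horizontal axis), in 46 mitosis and G2/M genes, 25 S phase genes and 27025 genes with a promoter. CHR matches are at 78.3%, 36.0% and 30.6% of the 3 sets, and E2F matches at 6.52%, 44.0% and 2.60%.

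The 6 promoters printed next, from RefSeq on GRCm38.p6, show how the elements are laid out. Each runs 5′ to 3′ on the strand of its gene and covers the 120 bases before the RefSeq start, less any base that GENCODE places within the gene. Capitals mark CHR matches (TTTGAA or TTTAAA or the reverse TTCAAA) and CCAAT matches (CCAAT or the reverse ATTGG). Top2a, Plk1, Kif11 and Cdc20 hold a CHR close to the start with CCAAT upstream or downstream of it, Mki67 holds its CHR matches farther out, and Bub1 holds a CCAAT pair with no CHR.
Top2a, chr11:99024190-99024309, minus strand: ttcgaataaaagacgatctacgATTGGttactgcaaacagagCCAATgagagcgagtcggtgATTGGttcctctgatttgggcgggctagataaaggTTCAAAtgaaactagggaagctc
Plk1, chr7:122159315-122159434, plus strand: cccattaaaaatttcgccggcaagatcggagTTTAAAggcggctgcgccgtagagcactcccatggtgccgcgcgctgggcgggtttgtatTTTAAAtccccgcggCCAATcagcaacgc
Kif11, chr19:37376262-37376381, plus strand: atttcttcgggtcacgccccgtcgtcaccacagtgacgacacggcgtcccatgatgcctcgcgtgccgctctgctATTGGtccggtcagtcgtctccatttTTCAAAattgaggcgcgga
Cdc20, chr4:118437353-118437463, minus strand: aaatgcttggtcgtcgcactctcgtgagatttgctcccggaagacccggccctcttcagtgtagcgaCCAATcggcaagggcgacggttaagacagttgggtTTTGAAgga
Mki67, chr7:135716380-135716499, minus strand: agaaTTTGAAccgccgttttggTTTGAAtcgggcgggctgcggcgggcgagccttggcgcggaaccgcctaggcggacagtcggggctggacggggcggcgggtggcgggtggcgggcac
Bub1, chr2:127831866-127831979, minus strand: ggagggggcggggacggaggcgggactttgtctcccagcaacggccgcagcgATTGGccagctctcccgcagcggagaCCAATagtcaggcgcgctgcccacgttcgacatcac
In these runs the CHR of Top2a begins 23 bases before the start and its 3 CCAAT matches begin 98, 78 and 58 bases before it. The CHR of Kif11 begins 19 bases before the start, that of Cdc20 begins 18 bases before it, and Plk1 has a CHR at 29 and another at 89 bases. Both Mki67 matches, at 116 and 98 bases, lie outside the 50 bases nearest the start.

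**Figure D4:**
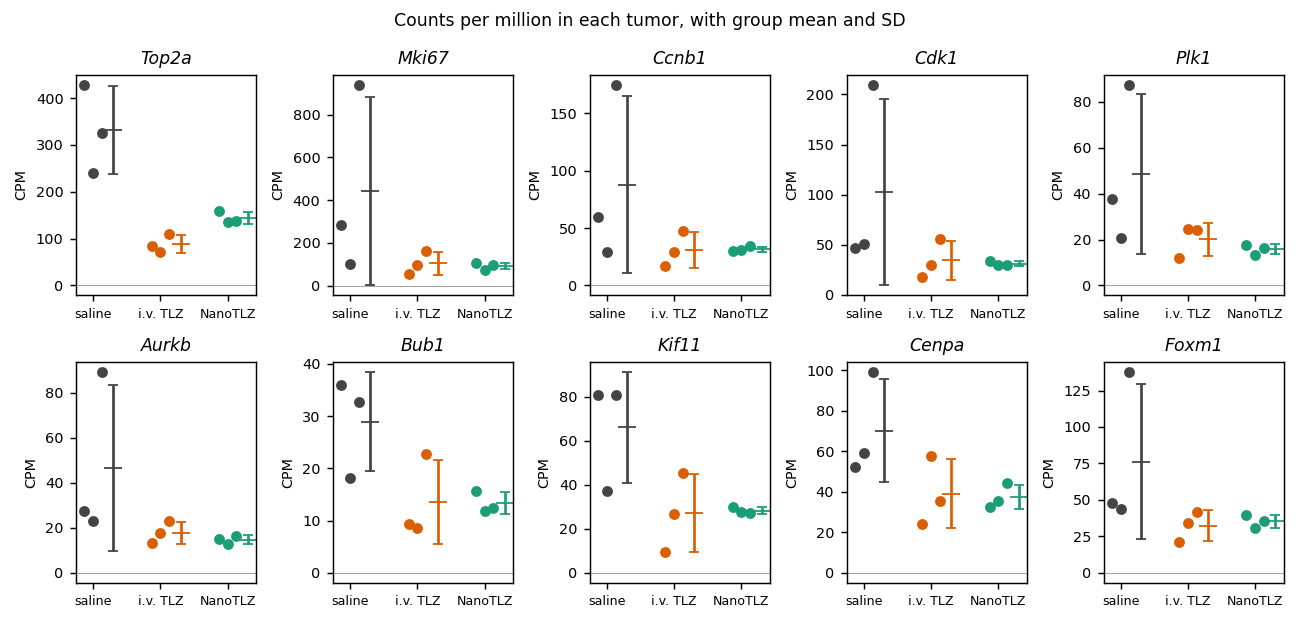
CPM (vertical axes, each starting near 0) of 10 genes in each tumor (points) by group (horizontal axes), with the group mean and SD (n = 3) beside the points. For Top2a the 3 saline tumors lie above all treated tumors, at 241 to 429 CPM against 71.2 to 158 CPM, and for Mki67, Ccnb1, Cdk1, Plk1, Aurkb and Foxm1 the widest saline SD comes with 1 tumor, A3688, far above the other saline tumors.

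The cyclins, Cdk1 and its activators had lower mean levels in each treated group, with a median log2 fold change over the 6 genes of -1.28 with i.v. TLZ and -1.36 with NanoTLZ, and of -0.47 and -0.55 without A3688. Cdk1 (chr10:69335146-69352938, minus strand), the kinase that drives entry into mitosis, was at 46.4, 50.9 and 209.9 CPM with saline, 17.9, 29.7 and 55.7 CPM with i.v. TLZ and 34.03, 29.3 and 29.8 CPM with NanoTLZ. Its log2 fold change in the mean of both treatments was -1.65 (SE 0.49), and -0.55 without A3688, which held 4.52 times the level of A3673. Ccnb1 (chr13:100778650-100786570, minus strand), which encodes cyclin B1, the partner of Cdk1, was at 59.9, 28.7 and 175 CPM with saline, 16.5, 29.2 and 47.9 CPM with i.v. TLZ and 30.2, 30.7 and 33.99 CPM with NanoTLZ. All 3 NanoTLZ tumors and 2 of the i.v. TLZ tumors were above saline tumor A3685, so the groups overlapped, and the log2 fold change of -1.49 (SE 0.49) became -0.47 without A3688. Cdc25c, the phosphatase that removes inhibitory phosphates from Cdk1, was among the 5 genes of lowest log2 fold change, at -1.88 (SE 0.56). It was at 10.9, 9.58 and 57.9 CPM with saline, 3.98, 7.71 and 10.6 CPM with i.v. TLZ and 7.61, 5.95 and 6.93 CPM with NanoTLZ, and the value without A3688 was -0.50. Its relative Cdc25b was among the 5 genes of highest value, at -0.51 (SE 0.39), with 49.2, 28.6 and 62.9 CPM with saline, 35, 19.7 and 55.2 CPM with i.v. TLZ and 23.8, 21.2 and 43.8 CPM with NanoTLZ, so that both treated groups overlapped saline. Without A3688 the log2 fold change of Cdc25b was -0.22. Ccna2, encoding cyclin A2, had a log2 fold change of -1.07 (SE 0.32) and Ccnb2, encoding cyclin B2, -1.08 (SE 0.44), and both were below all saline tumors in all 3 NanoTLZ tumors. Without A3688 they were -0.91 and -0.39. Ccnb1, Ccnb2, Kif22 and Kif4 have named pseudogenes, and how reads shared with those were assigned was not given.

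Among the 5 mitotic kinases, Pbk, Melk and Nek2 separated saline from all treated tumors and Aurka did not. Plk1 (chr7:122159439-122169873, plus strand), which acts at centrosomes, kinetochores and the midzone, was at 37.6, 20.7 and 87.5 CPM with saline, 11.8, 24.6 and 24.1 CPM with i.v. TLZ and 17.8, 13.3 and 16.5 CPM with NanoTLZ. Its NanoTLZ tumors were below all saline tumors, whereas i.v. TLZ tumors B3684 and B3700 were above A3685. The log2 fold change was -1.27 with i.v. TLZ (SE 0.51) and -1.61 with NanoTLZ (SE 0.51), and -0.68 in the mean of both without A3688, against -1.44 with it. Pbk (chr14:65805837-65817822, plus strand), a MAPKK-like kinase of mitotic cells, was at 41.03, 31.4 and 116 CPM with saline, 10.6, 20.7 and 21.1 CPM with i.v. TLZ and 15.02, 18.1 and 20.02 CPM with NanoTLZ, with a log2 fold change of -1.84 (SE 0.40) and -1.02 without A3688. Aurka (chr2:172356190-172370535, minus strand), the kinase of spindle poles, had the highest log2 fold change of all 57 genes, -0.49 (SE 0.36, -0.26 without A3688), with 38.6, 23.2 and 45.97 CPM with saline, 18.7, 16.02 and 43.3 CPM with i.v. TLZ and 23.1, 20.6 and 31.1 CPM with NanoTLZ. Melk, at -1.06 (SE 0.29), and Nek2, a centrosome kinase, at -1.08 (SE 0.31), were at -1.03 and -1.10 without A3688, so these 2 values moved little.

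The chromosomal passenger complex joins Aurora B with 3 partners and corrects wrong attachments of chromosomes to the spindle. Its kinase Aurkb (chr11:69045647-69051664, plus strand) was at 27.6, 23.2 and 89.3 CPM with saline, 13.04, 17.7 and 22.8 CPM with i.v. TLZ and 15.2, 12.6 and 16.5 CPM with NanoTLZ. All 6 treated tumors were below the saline tumors, though B3700 at 22.8 CPM and A3685 at 23.2 CPM were close. In the mean of both treatments it was at -1.53 on the log2 scale (SE 0.41), and at -0.63 without A3688. Incenp (chr19:9872296-9899551, minus strand), the scaffold of the complex, was among the 5 genes of highest log2 fold change, at -0.74 (SE 0.32), with 122, 83.4 and 128 CPM with saline, 34.7, 59.6 and 101 CPM with i.v. TLZ and 80.6, 58.2 and 64.6 CPM with NanoTLZ. B3700 alone of the treated tumors was above the lowest saline tumor for Incenp, for Birc5 (survivin) and for Cdca8 (borealin). Birc5 and Cdca8 had log2 fold changes of -0.91 (SE 0.29) and -0.78 (SE 0.34). Without A3688, Incenp, Birc5 and Cdca8 were at -0.60, -0.70 and -0.82.

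All 4 spindle checkpoint genes were lower in each of the NanoTLZ tumors than in the lowest saline tumor. Bub1 (chr2:127801122-127831865, minus strand), the kinase that gathers checkpoint proteins at kinetochores, was at 36.05, 18.1 and 32.7 CPM with saline, 9.36, 8.53 and 22.8 CPM with i.v. TLZ and 15.7, 11.9 and 12.4 CPM with NanoTLZ. B3700 was the exception among treated tumors, above A3685. Its log2 fold change was -1.10 (SE 0.37), and -0.99 without A3688. Bub1b (BubR1), Ttk (the kinase Mps1) and Mad2l1 (Mad2), which together hold back the anaphase-promoting complex, were at -1.08, -1.36 and -1.71 (SE 0.39, 0.48 and 0.44). Mad2l1 was lower in all 6 treated tumors, but its value depended most on A3688, without which the 3 were at -0.91, -1.002 and -0.77.

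The 7 genes of the centromere and kinetochore had median log2 fold changes of -1.45 with i.v. TLZ and -1.24 with NanoTLZ, and -0.50 and -0.56 without A3688. Cenpa (chr5:30666777-30674830, plus strand), the histone variant that marks the centromere, was at 51.96, 59.3 and 99.1 CPM with saline, 24.1, 57.5 and 35.4 CPM with i.v. TLZ and 32.6, 35.1 and 44.2 CPM with NanoTLZ. B3684 was above saline tumor A3673, and the other 5 treated tumors were below all saline tumors. Its log2 fold change was -0.88 (SE 0.31), and -0.52 without A3688. Cenpe (chr3:135212537-135273611, plus strand), a kinesin that moves chromosomes to the metaphase plate, was at 113, 38.5 and 143 CPM with saline, 15.7, 23.5 and 37.8 CPM with i.v. TLZ and 44, 25.7 and 33.1 CPM with NanoTLZ. Here i.v. TLZ tumors were all below saline, and NanoTLZ tumor C3519 was above A3685. Its log2 fold change was -1.94 with i.v. TLZ (SE 0.50) and -1.52 with NanoTLZ (SE 0.49), and -1.32 in the mean of both without A3688. Of the 4 subunits of the Ndc80 complex, which grips microtubules, Nuf2 was lower in all 6 treated tumors at -1.59 (SE 0.36), while Ndc80, Spc24 and Spc25 overlapped at -0.74, -1.40 and -1.16 (SE 0.40, 0.51 and 0.40). Leaving out A3688, Nuf2 was at -1.11 and the other 3 at -0.52, -0.27 and -0.40. Cenpf, a large protein of the outer kinetochore, was at -1.42 (SE 0.42), and -1.06 without A3688.

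Among the 8 kinesin motors, the median log2 fold change was -1.21 with i.v. TLZ and -1.29 with NanoTLZ, and -0.81 and -0.89 without A3688. Kif11 (chr19:37376403-37421859, plus strand), the motor Eg5 that pushes spindle poles apart, was at 80.7, 36.98 and 80.7 CPM with saline, 9.60, 26.7 and 45.2 CPM with i.v. TLZ and 29.9, 27.7 and 27.1 CPM with NanoTLZ. The 3 NanoTLZ tumors lay between 27.1 and 29.9 CPM, below every saline tumor, whereas the i.v. TLZ tumors spread from 9.60 to 45.2 CPM. Its log2 fold change was -1.25 (SE 0.42), and -1.06 without A3688. Kif2c (chr4:117159639-117182639, minus strand), which takes microtubules apart at centromeres and whose reads separated all 6 treated tumors from saline, was at 35.6, 36.4 and 45.1 CPM with saline, 11.1, 22.6 and 29.6 CPM with i.v. TLZ and 15.9, 15.6 and 15.3 CPM with NanoTLZ, with -1.11 (SE 0.30), and -0.97 without A3688. Kif15 (chr9:122951046-123018733, plus strand), which acts beside Kif11, had the second lowest log2 fold change of the 57 genes, -1.89 (SE 0.48), with 25.98, 9.72 and 61.3 CPM with saline, 6.35, 7.27 and 11.4 CPM with i.v. TLZ and 11.2, 9.28 and 6.93 CPM with NanoTLZ. A3685 lay below B3700 and C3519, and the value was -1.01 without A3688. Kif23 (chr9:61915905-61946774, minus strand), the midzone motor of cytokinesis, was at 44.7, 18.6 and 57.9 CPM with saline, 9.94, 18.1 and 54.05 CPM with i.v. TLZ and 22.7, 11.6 and 21.6 CPM with NanoTLZ, where B3700 was close to the highest saline tumor, and at -0.84 (SE 0.52), or -0.46 without A3688. Kif20a, Kif22, Kif4 and Kif18b were at -1.57, -1.22, -1.33 and -0.92 (SE 0.56, 0.43, 0.40 and 0.40), and at -0.17, -0.26, -1.07 and -0.86 without A3688. Exons of Kif20a overlap those of Cdc23 on the other strand, and those of Kif4 overlap Pdzd11. Of the 57 genes, 16 have exons that overlap a gene on the opposite strand. The strand setting of the counting was not given, so the reads of such pairs cannot be told apart here.

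Spindle assembly factors ranged from Ckap2 at the low end to Tpx2 at the high end. Ckap2 (chr8:22168160-22185819, minus strand), a protein of spindle microtubules, was at 28.6, 18.5 and 120.3 CPM with saline, 7.71, 14.1 and 22.4 CPM with i.v. TLZ and 16.8, 15.8 and 16.8 CPM with NanoTLZ, with a log2 fold change of -1.84 (SE 0.53). A3688 held the highest level, far above the other saline tumors, and without it the value was -0.57. Tpx2 (chr2:152847964-152895321, plus strand), which activates Aurora A and starts microtubules near chromosomes, was at 92.8, 45.5 and 95.9 CPM with saline, 26.9, 30.5 and 90.4 CPM with i.v. TLZ and 53.05, 37.7 and 47.8 CPM with NanoTLZ. C3519, C3698 and B3700 were above A3685, and the log2 fold change was -0.71 (SE 0.40), or -0.51 without A3688. Hmmr and Dlgap5, which organize spindle microtubules, were lower in all 6 treated tumors, at -1.78 (SE 0.47) and -1.17 (SE 0.37), and at -1.06 and -0.80 without A3688. Nusap1, Ckap2l and Troap, which also bind or act on the spindle, were at -0.75, -1.04 and -1.07 (SE 0.41, 0.42 and 0.35), and at -0.43, -0.69 and -0.60 without A3688. Of these 3, only Troap had all NanoTLZ tumors below saline.

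The 4 genes of the midzone and cytokinesis had median log2 fold changes of -0.88 with i.v. TLZ and -0.92 with NanoTLZ, and -0.72 and -0.74 without A3688. Ect2, the exchange factor that switches on RhoA at the cell equator, separated all 6 treated tumors from saline at -0.86 (SE 0.31), and its value without A3688 was -0.95. Prc1, which bundles midzone microtubules, was at -0.93 (SE 0.37), Racgap1, the partner of Kif23, at -1.17 (SE 0.41), and Anln (anillin), which anchors the contractile ring, at -0.74 (SE 0.44). Without A3688 these were at -0.63, -0.72 and -0.63. Anln showed overlap in both treated groups, with B3684, B3700, C3519 and C3698 above A3685.

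The 5 genes of anaphase had median log2 fold changes of -0.99 with i.v. TLZ and -1.24 with NanoTLZ, and -0.36 and -0.59 without A3688. Cdc20 (chr4:118432901-118437352, minus strand), the activator of the anaphase-promoting complex whose promoter is printed above, was at 89.4, 73.2 and 109 CPM with saline, 23.2, 86.4 and 87.6 CPM with i.v. TLZ and 33.8, 38.3 and 41.8 CPM with NanoTLZ. Of the i.v. TLZ tumors only B3638 was below the saline tumors, whereas all 3 NanoTLZ tumors were. The log2 fold change was -0.46 with i.v. TLZ (SE 0.44) and -1.25 with NanoTLZ (SE 0.44), and the mean of both was -0.68 without A3688, against -0.86 with it. Exons of Cdc20 overlap those of Elovl1 on the other strand. Ube2c (chr2:164769898-164778822, plus strand), the ubiquitin-conjugating enzyme of the complex, was at 73.01, 49.9 and 71.02 CPM with saline, 27.7, 56.96 and 57.7 CPM with i.v. TLZ and 46.2, 35.3 and 41.2 CPM with NanoTLZ. Again B3684 and B3700 were above the lowest saline tumor and all 3 NanoTLZ tumors were below it, with a log2 fold change of -0.55 (SE 0.28), and -0.46 without A3688. Pttg1 (securin) and Espl1 (separase), the lock and the protease that cuts cohesin, were at -1.11 (SE 0.42) and -1.15 (SE 0.35), and at -0.42 and -0.70 without A3688. Cdca3, a trigger of mitotic entry, was lower in all 6 treated tumors at -1.66 (SE 0.45), with -0.72 without A3688.

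Chromosome condensation and topology held both the lowest log2 fold change of the 57 genes and the one with the smallest error. Top2a (chr11:98992943-99024189, minus strand), the topoisomerase that untangles sister chromatids, was at 429, 241 and 325 CPM with saline, 84.5, 71.2 and 110.2 CPM with i.v. TLZ and 158, 135 and 138 CPM with NanoTLZ. Group means were 332 ± 94.1, 88.7 ± 19.8 and 144 ± 12.6 CPM (SD, n = 3), and the lowest saline tumor, A3685, was above the highest treated tumor, C3519. The log2 fold change was -1.90 with i.v. TLZ (SE 0.30, edgeR adjusted p = 0.2505), -1.20 with NanoTLZ (SE 0.29, adjusted p = 0.5518) and -1.55 in the mean of both (SE 0.24, adjusted p = 0.09154). Without A3688 the last value was -1.55, so Top2a moved least with that tumor. DESeq2 fitted to all 9 tumors gave an adjusted p of 5.569e-05 with i.v. TLZ and 0.0001459 in the mean of both, and edgeR without a filter on low counts gave 0.04201 in the mean of both. The paper, whose calls used DESeq2 at an adjusted p under 0.05, reports Top2a as downregulated in both treated groups. It also reports that real-time PCR on these and further mice bore out its sequencing result for Top2a. Mki67 (chr7:135689784-135716361, minus strand), the Ki-67 protein that coats mitotic chromosomes and serves as a marker of dividing cells, was at 286, 101 and 940.0 CPM with saline, 54.3, 97.6 and 160.2 CPM with i.v. TLZ and 107, 75.3 and 95.2 CPM with NanoTLZ. A3688 was far above the other saline tumors, and A3685 was below B3700 and C3519. At -2.17 (SE 0.56), its log2 fold change was the lowest of the 57 genes, but -0.95 without A3688. The condensin subunits Smc2, Smc4, Ncapg and Ncaph, which fold chromosomes into compact rods, were at -1.20, -0.85, -1.23 and -1.19 (SE 0.33, 0.32, 0.34 and 0.34). Without A3688 they were at -1.27, -0.82, -0.98 and -0.96. Ncapg was lower in all 6 treated tumors, whereas for Smc4 all 3 NanoTLZ tumors were above the lowest saline tumor.

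Foxm1 (chr6:128362967-128376146, plus strand), the transcription factor that activates many of the other genes in G2, was at 47.6, 43.4 and 138 CPM with saline, 20.99, 34.2 and 41.7 CPM with i.v. TLZ and 39.9, 31 and 35.3 CPM with NanoTLZ. All 6 treated tumors were below the saline tumors, the nearest pair being B3700 at 41.7 CPM and A3685 at 43.4 CPM. The log2 fold change was -1.24 with i.v. TLZ (SE 0.46), -1.11 with NanoTLZ (SE 0.46) and -1.17 in the mean of both (SE 0.38), and the last was -0.41 without A3688.

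**Figure D5:**
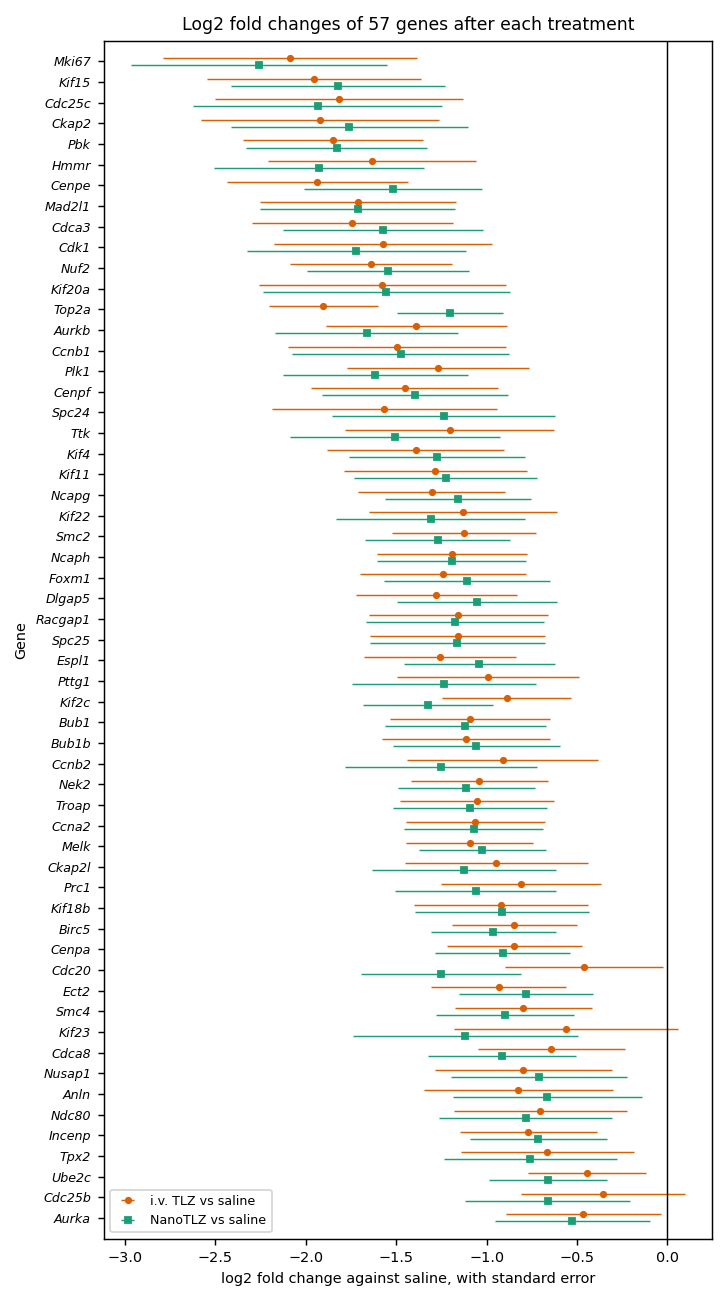
Log2 fold change against saline (horizontal axis) of each of the 57 genes (vertical axis, ordered by the mean of both treatments), with i.v. TLZ (circles) and NanoTLZ (squares), with bars of 1 standard error from edgeR. All points lie below 0, from -2.26 for Mki67 to -0.36 for Cdc25b, and both comparisons use the same 3 saline tumors.

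The 2 formulations were compared directly in the same fit. The median log2 difference of NanoTLZ from i.v. TLZ over the 57 genes was -0.019, against -0.036 over all tested genes, with 33 genes below 0 and 24 above. Single genes ranged from -0.79 to 0.70 with standard errors of 0.29 to 0.68. By edgeR 0 of 57 genes were called, where 0% of all tested genes were, and the adjusted p was 0.9999 for each gene. At an unadjusted p under 0.05, 0 genes were lower in NanoTLZ, against 1.23% of all tested genes, and 1 was higher, against 0.449%. DESeq2 and limma-voom called 0 genes. That 1 gene was Top2a, with a log2 difference of 0.70 (SE 0.29). All 3 NanoTLZ tumors were above all 3 i.v. TLZ tumors for Top2a, as for 507 of all 15821 tested genes. The next 4 genes in order of p were Cdc20 at -0.79 (SE 0.44), Kif2c at -0.43 (SE 0.36), Kif23 at -0.56 (SE 0.62) and Cenpe at 0.42 (SE 0.48), and each had overlapping groups. The direction over the list turned on single i.v. TLZ tumors, with 53 genes below 0 without B3638 and 9 without B3700.

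Other genes of mitosis and of the cell cycle were read from 9 lists for context. Of 32 other kinetochore genes, 31 were below 0 in the mean of both treatments, with a median log2 fold change of -0.94. By edgeR, 0 were called at an adjusted p under 0.05 and 19 were lower at an unadjusted p under 0.05. In that comparison 0.019% of all tested genes were called and 8.29% were lower, the shares to set beside each list in this paragraph. Cenpk at -1.82 and Cenpu at -1.52 were among the lowest, and the highest were Cenpt at 0.26, Cenpo at -0.20 and Zw10 at -0.27. Of 4 other condensin subunits all 4 were below 0 (median -0.95, 2 lower at an unadjusted p under 0.05), from Ncapd2 at -1.41 and Ncapg2 at -1.19 to Ncapd3 at -0.70 and Ncaph2 at -0.51. Of 20 other kinesin and cytokinesis genes 18 were below 0 (median -0.79, 9 lower), from Shcbp1 at -2.07, Depdc1a at -1.68 and Kif14 at -1.44 to Kif3b at 0.36, Sept9 at 0.16 and Rhoa at -0.10. Cohesin, which holds sister chromatids together, had 14 of 15 genes below 0 (median -0.66, 8 lower), from the acetyltransferase Esco2 at -1.53, Sgo2a at -1.18 and Sgo1 at -0.99 to Mau2 at 0.15, Smc1a at -0.35 and Wapl at -0.47. Centrosome and spindle pole genes had 20 of 24 below 0 (median -0.50, 9 lower), from Psrc1 at -2.23, Sapcd2 at -1.44 and Aspm at -1.44 to Haus5 at 0.32, Haus8 at 0.26 and Haus7 at 0.16. The anaphase-promoting complex itself had 13 of 17 below 0 (median -0.33, 3 lower), from its inhibitor Fbxo5 at -1.71, Anapc5 at -0.79 and Cdc23 at -0.78 to Anapc13 at 0.22, Anapc10 at 0.11 and Anapc2 at 0.10. DREAM and MuvB genes had 14 of 17 below 0 (median -0.41, 6 lower), from E2f8 at -1.16, E2f7 at -1.10 and Tfdp1 at -1.05 to E2f4 at 0.25, E2f1 at 0.18 and Lin52 at 0.14. Without A3688 the medians of these 7 lists, in the same order, were -0.33, -0.62, -0.60, -0.60, -0.32, -0.04 and -0.42, and 3, 2, 4, 4, 4, 1 and 4 genes were lower at an unadjusted p under 0.05. The share lower among all genes tested in that fit was 4.87%. Without A3688, Cenpk and Cenpu were at -0.07 and -0.83, and Ncapd2 and Ncapg2 at -0.72 and -1.07. Shcbp1, Depdc1a and Kif14 were then at -0.85, -1.07 and -1.32, and Esco2, Sgo2a and Sgo1 at -1.24, -1.06 and -0.74. Psrc1, Sapcd2 and Aspm were at 0.05, -0.29 and -1.10, and Fbxo5, Anapc5 and Cdc23 at -1.11, -0.125 and 0.239. E2f8, E2f7 and Tfdp1 were at -0.87, -0.88 and -0.42. Exons of Cdc23 overlap those of Kif20a on the other strand. None of these lists was tested as a set, and no gene on them had an adjusted p under 0.05 by edgeR.

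Genes that control entry into mitosis had values on both sides of 0. Of 17 tested genes of entry control and the G2 checkpoint, 13 were below 0 (median -0.73), 8 were lower and 2 higher at an unadjusted p under 0.05, and 0 were called by edgeR. At that p, 1312 of all 15821 tested genes were lower and 760 higher, and 0.019% of all tested genes were called. Gadd45a, a p53 target that binds Cdk1, was at 13.4, 15.2 and 2.89 CPM with saline, 26.7, 31.5 and 28.2 CPM with i.v. TLZ and 21.2, 30.9 and 18.2 CPM with NanoTLZ, with a log2 fold change of 1.31 (SE 0.48, edgeR adjusted p = 0.3137). Cdkn1a, which encodes the Cdk inhibitor p21, was at 46.1, 50.5 and 46.1 CPM with saline, 128, 78.3 and 85.3 CPM with i.v. TLZ and 74.8, 76.1 and 57.2 CPM with NanoTLZ, with 0.79 (SE 0.24, edgeR adjusted p = 0.2836). Every treated tumor exceeded every saline tumor in both genes, as in 444 of all 15821 tested genes. Chek1, the checkpoint kinase, had the lowest value of the list at -2.27 (SE 0.78), with 15.4, 4.48 and 93.3 CPM with saline, 3.54, 4.26 and 13.4 CPM with i.v. TLZ and 8.33, 4.53 and 13.3 CPM with NanoTLZ, and its value without A3688 was -0.31 (SE 0.65). Gadd45a and Cdkn1a were at 0.88 and 0.79 without A3688, and the list had a median of -0.31 with 0 genes lower and 3 higher at an unadjusted p under 0.05. In that fit 4.87% of all tested genes were lower, and the share higher was not counted. Cdkn3 at -1.34 and Gtse1 at -0.99 were the next lowest, and Arpp19 at 0.058 was the third highest.

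The 32 S phase genes are the nearest neighbours of the 57 genes in the cell cycle. All 32 were below 0 in the mean of both treatments, with a median log2 fold change of -0.92. There edgeR called 0, against 0.019% of all tested genes, and found 23 lower at an unadjusted p under 0.05, against 8.29%. After i.v. TLZ their median was -0.96 with 24 lower, and with NanoTLZ -0.84 with 9 lower, against 5.47% and 5.49% of all tested genes. Without A3688 all 32 stayed below 0 in the mean of both, with a median of -0.51 and 7 lower, against 4.87% of all genes tested in that fit. With i.v. TLZ all 32 then stayed below 0, with a median of -0.60 and 5 lower, against 4.19%. With NanoTLZ 29 stayed below 0, with a median of -0.47 and 0 lower, against 3.27%. The lowest with all 9 tumors were Rfc5 at -1.45, Mcm6 at -1.20 and Ccne1 at -1.18. Without A3688 these 3 were at -0.55, -0.77 and -0.79. The highest with all 9 tumors were Pcna, the replication clamp, at -0.26, Gins3 at -0.27 and Fen1 at -0.28. Pcna was at 182, 147 and 222 CPM with saline, 119.8, 156 and 196 CPM with i.v. TLZ and 164, 143 and 146 CPM with NanoTLZ, with the groups overlapping. Tumor by tumor, their median deviation on the log2 CPM scale was 0.49, -0.011 and 1.07 with saline, -0.69, -0.39 and 0.092 with i.v. TLZ and -0.003, -0.17 and -0.25 with NanoTLZ. The difference between the 2 groups of genes was not tested.

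Per kilobase of exon, the saline level of the 57 genes ran from 2.94 CPM per kb for Kif15 to 48.4 CPM per kb for Cdc20, with a median of 11.9. Mki67 was at 43.96, Top2a at 36.8 and Pbk at 35.1 CPM per kb. The median was 5.61 CPM per kb in each treated group, with Kif15 lowest and Cdc20 highest in both. Across the 9 tumors the level of each gene followed the mean z-score of all 57, with Pearson r from 0.68 for Cdc25b, 0.72 for Smc4 and 0.79 for Top2a to 0.99 for Troap. These r values are descriptions over 9 tumors that share the treatment difference, and each gene is part of the mean.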

How the data were processed

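Tumors were assigned to saline, i.v. TLZ or NanoTLZ from their labels. The authors deposited 1 table of raw counts, with 1 column for each of the 9 tumors, made for them by Novogene. The submitters' processing notes name TopHat2, DESeq2 and mm10, and the counting program, annotation version and strand setting were not given in the sources used here. Total counts per tumor ranged from 17538380 to 21194980. Symbols, positions and exon lengths came from GENCODE M21 on GRCm38, where 34490 of 35275 identifiers were found.

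Genes were kept by filterByExpr (minimum count 10, minimum total 15), counts were scaled by TMM, and all 9 tumors were fitted with 1 coefficient per group by glmQLFit and glmQLFTest in edgeR 4.0.16 under R 4.3.3. Benjamini-Hochberg adjustment ran over the 15821 genes tested, with calls under 0.05. The standard error is the log2 fold change over the square root of F. DESeq2, named in the study's methods, was an alternative (1.42.0), as were limma-voom 3.58.1, edgeR on the compared groups, RLE and upper quartile scaling, other count filters, robust dispersion, and each tumor left out. Log2 CPM used a prior count of 2. The fit was tested on simulated data. Promoters came from RefSeq on GRCm38.p6. Tables used Python 3.11.15 and pandas 2.3.3, and figures matplotlib 3.10.9.

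The members and lists were chosen with earlier results of these data known, and no list was tested as a set. Named with values in every tumor were 10 genes by role, the 5 lowest and 5 highest log2 fold changes in the mean of both treatments, and the 5 smallest p in NanoTLZ against i.v. TLZ. Of each other list up to 3 lowest and 3 highest were named (a gene picked by this rule is not reported here), and, outside the lists, the 10 highest and 5 lowest correlations with the members' mean z-score.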

Additional observations from a re-analysis of the deposited data

How the results depend on the processing

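All 57 genes were below 0 in each comparison with saline under every alternative run, and their median log2 fold change without any single tumor lay between -1.53 and -0.71 for i.v. TLZ, -1.44 and -0.76 for NanoTLZ, -1.41 and -0.70 for the mean of both and -0.28 and 0.41 for NanoTLZ against i.v. TLZ. Genes lower at an unadjusted p under 0.05 by edgeR numbered 10 to 47 for i.v. TLZ, 9 to 48 for NanoTLZ, 18 to 53 for the mean of both and 0 to 2 for NanoTLZ against i.v. TLZ when single tumors were left out, where the shares of all tested genes were 3.52% to 8.56%, 2.47% to 8.66%, 4.87% to 11.25% and 0.640% to 1.96%, and 25 for i.v. TLZ when only the compared groups were fitted (3.17% of all genes). At an adjusted p under 0.05, DESeq2 on all 9 tumors called 3 genes lower for i.v. TLZ (0.531% of all genes) and 8 in the mean of both (0.842%), DESeq2 on the compared groups called 1 for i.v. TLZ (0.257%) and 2 for NanoTLZ (0.514%), and edgeR without a count filter called 1 in the mean of both (0.11%). The log2 difference of Kif23 between NanoTLZ and i.v. TLZ, -0.56, turned to 0.42 without i.v. TLZ tumor B3700 and ran from -0.95 to 0.42 over the tumors left out. The share of promoters with a CHR was 47.8% in the bases before the start alone, against 78.3%. The cause of these changes was not tested. No paired analysis was possible because labels of different groups hold no common replicate number.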

Other observations

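Outside all lists, the genes whose log2 CPM followed the mean z-score of the 57 genes most closely over the 9 tumors were Pclaf (Pearson r 0.98), Hcfc1, Rwdd4a, Wdr48, Wdr12, Exo1, Bard1, Pole, Qrich1 and Fam149a (0.96). Pclaf, which binds the replication clamp, was at 52.2, 34.8 and 134 CPM after saline, 11.3, 15.9 and 38.9 CPM after i.v. TLZ and 21.9, 21.9 and 21.6 CPM after NanoTLZ. Bard1, the partner of Brca1, was at 34.6, 20.4 and 56.6 CPM, 9.55, 10.6 and 26.0 CPM, and 18.3, 14.3 and 12.99 CPM in the same order. In both genes saline tumor A3688 was highest and i.v. TLZ tumor B3638 lowest, as in most of the 57 genes.

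The genes that ran most against them were Bdkrb1 (r -0.97), Ecm1, Uckl1, Adamtsl4 and Msln (-0.95). Ecm1, an extracellular matrix protein, was at 160, 319 and 44.4 CPM after saline, 736, 436 and 163 CPM after i.v. TLZ and 428, 382 and 379 CPM after NanoTLZ. Msln, mesothelin, was at 0.057, 7.43 and 0.092 CPM after saline, 148, 31.8 and 1.78 CPM after i.v. TLZ and 8.57, 13.4 and 6.47 CPM after NanoTLZ. The coefficients are over 9 tumors, and the genes were picked from the 15821 tested by this measure, so no p is given for them.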
